A study of Mus musculus with 10 samples.

Results

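A set of genes that mark the resident macrophages of the liver, the Kupffer cells, and their fetal precursors were followed in fetal liver RNA: Clec4f, Vsig4, Cd5l, Timd4, Marco, Cd163, Adgre1, Csf1r, C1qa and C1qb. They were chosen by name, through the Ensembl identifiers that map to these symbols, and they are 10 of the 55401 genes in the count table. All 10 passed the filter on low counts, as did 14098 genes in all. RNA-seq of polyA RNA was performed on livers of 10 female fetuses at E18.5. The Mir483Pat-KO group (n = 5) inherited a deletion of the microRNA gene Mir483 from the father, and the wild-type (WT) group (n = 5) were littermates without it. The deletion was made by Cre recombination in C57BL/6N embryonic stem cells and came from independent clones (F4 and E12). The colony was kept on C57BL/6J, and the deletion is constitutive, present in every cell and not in macrophages alone. Each library is 1 fetus, and the labels do not say which fetuses shared a litter, so p-values measure the spread between these libraries.

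Kupffer cells sit inside the liver sinusoids, where they clear bacteria, apoptotic cells and aged red blood cells from the blood and recycle heme iron. They are seeded before birth from yolk sac and fetal liver progenitors, depend on signalling through the CSF1 receptor, and take on their liver-specific genes under the influence of the endothelial, stellate and hepatocyte cells around them. Before birth the liver is also the main site of blood formation, and fetal macrophages there engulf the nuclei that maturing red cells expel.

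Total counts ranged from 10831350 to 14765880 per library, and a marker had between 55 and 2871 counts in a library. Levels are CPM, each gene's counts as a share of the library total (scaled by TMM and multiplied to a common total). Mir483 itself was at 0.838 to 1.62 CPM (10 to 22 counts) in the WT libraries and at 0 counts in all 5 Mir483Pat-KO libraries, where a count of 0 allows up to 3 counts (counting error only). These are reads of polyA libraries over the 73 bases of the gene, and not the level of the mature microRNAs. The authors measured those separately, by microRNA sequencing and RT-qPCR. The identification numbers in the labels fall into a lower range (4 WT and 2 Mir483Pat-KO libraries) and an upper range (1 WT and 3 Mir483Pat-KO libraries). What a range marks is not stated. Library index order and genotype cannot be told apart.

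The mature microRNAs that the deletion removes are printed here because their seeds, bases 2 to 8 and in capitals, define which transcripts could carry a match. Both lie on the minus strand of GRCm38, miR-483-3p at chr7:142654932-142654952 and miR-483-5p at chr7:142654968-142654989. The sequences are those of RefSeq (GRCm38.p6).
miR-483-3p: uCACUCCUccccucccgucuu
miR-483-5p: aAGACGGGagaagagaagggag

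Among the 10 markers, 3 held a match to a seed in the longest annotated 3′ UTR (GENCODE M21), and each held 1. Cd163 and Csf1r carried a miR-483-3p match (AGGAGTG in the DNA), which 12.6% of the 12875 tested genes with a 3′ UTR hold at least once. C1qa carried a miR-483-5p match (CCCGTCT), which 3.28% of those genes hold. The Cd163 match starts at base 816 of a 3′ UTR of 954 bases (chr6:124330389-124330395, plus strand) and the C1qa match at base 221 of 237 (chr4:136895927-136895933, minus strand). They are shown with their flanks, the match in capitals.
Cd163 site: ggcgtgagagtAGGAGTGaggactgattg
C1qa site: aataaacgatcCCCGTCTgtgtctgtga
The other 7 markers had 0 matches to either seed in this window. A match is a run of letters and does not show binding.

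Promoters were read for the markers that RefSeq's table lists, 7 of the 10, over the 200 bases before the start site. Clec4f, C1qb and Cd5l are shown, since Clec4f and C1qb were among the markers with lower means in Mir483Pat-KO and Cd5l had the largest positive fold change. Capitals mark the PU box GAGGAA, the core recognised by the macrophage factor PU.1, and the MAF half-site TGCTGA, each on either strand. Any overlap between the motifs would show as a longer run in capitals. The Clec4f sequence is printed only for the 129 bases outside the annotated gene, and motifs were counted over the full 200 bases in every promoter.
Clec4f, chr6:83656188-83656316, minus strand: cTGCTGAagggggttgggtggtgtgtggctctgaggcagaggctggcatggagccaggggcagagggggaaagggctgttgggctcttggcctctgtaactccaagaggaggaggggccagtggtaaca
C1qb, chr4:136886201-136886400, minus strand: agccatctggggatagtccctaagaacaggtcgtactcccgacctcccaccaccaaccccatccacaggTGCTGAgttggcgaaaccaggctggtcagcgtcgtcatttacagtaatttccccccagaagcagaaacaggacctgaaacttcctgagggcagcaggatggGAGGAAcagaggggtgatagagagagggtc
Cd5l, chr3:87357681-87357880, plus strand: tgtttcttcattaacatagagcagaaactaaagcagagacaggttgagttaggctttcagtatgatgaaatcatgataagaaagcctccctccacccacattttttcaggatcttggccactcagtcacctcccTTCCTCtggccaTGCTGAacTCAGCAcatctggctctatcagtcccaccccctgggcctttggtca
The PU box stood in 4 of these 7 promoters (Cd5l, C1qb, Marco and Vsig4), against 19% of 32851 promoters of the same length. The MAF half-site also stood in 4 of 7 (Clec4f, C1qb, Cd5l and Timd4), against 13.2%. Cd163 had neither. These counts are descriptions and do not show binding.

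The 10 markers did not share 1 direction between genotypes. Clec4f and C1qa were lower in Mir483Pat-KO livers, by 27.1% and 18.1% of the WT level, and passed the edgeR quasi-likelihood test at an adjusted p under 0.05. Of the other 8, 3 had lower fitted levels (C1qb, Csf1r and Cd163) and 5 had higher ones (Cd5l, Timd4, Adgre1, Marco and Vsig4), and none passed. The 2 of 10 that passed stand beside 5.19% of all genes tested (2.76% lower and 2.43% higher in Mir483Pat-KO). No marker passed with a fold change over 1.5, as 1.23% of all genes did. At an unadjusted p under 0.05 there were 4 markers (C1qa, Clec4f, Cd5l and C1qb), beside 22.2% of all genes. DESeq2 and limma-voom each also called 2 of the 10, beside 4.05% and 5.34% of the genes they tested. The median log2 fold change of the 10 was −0.023, and that of all genes 0.0042. Together, the 10 genes made up 0.0775% ± 0.00677 of a WT library and 0.076% ± 0.00869 of a Mir483Pat-KO library (mean ± SD, n = 5), and the sums overlapped between the groups. In whole liver RNA, fewer cells of a type and less RNA per cell cannot be told apart.

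**Figure D1:**
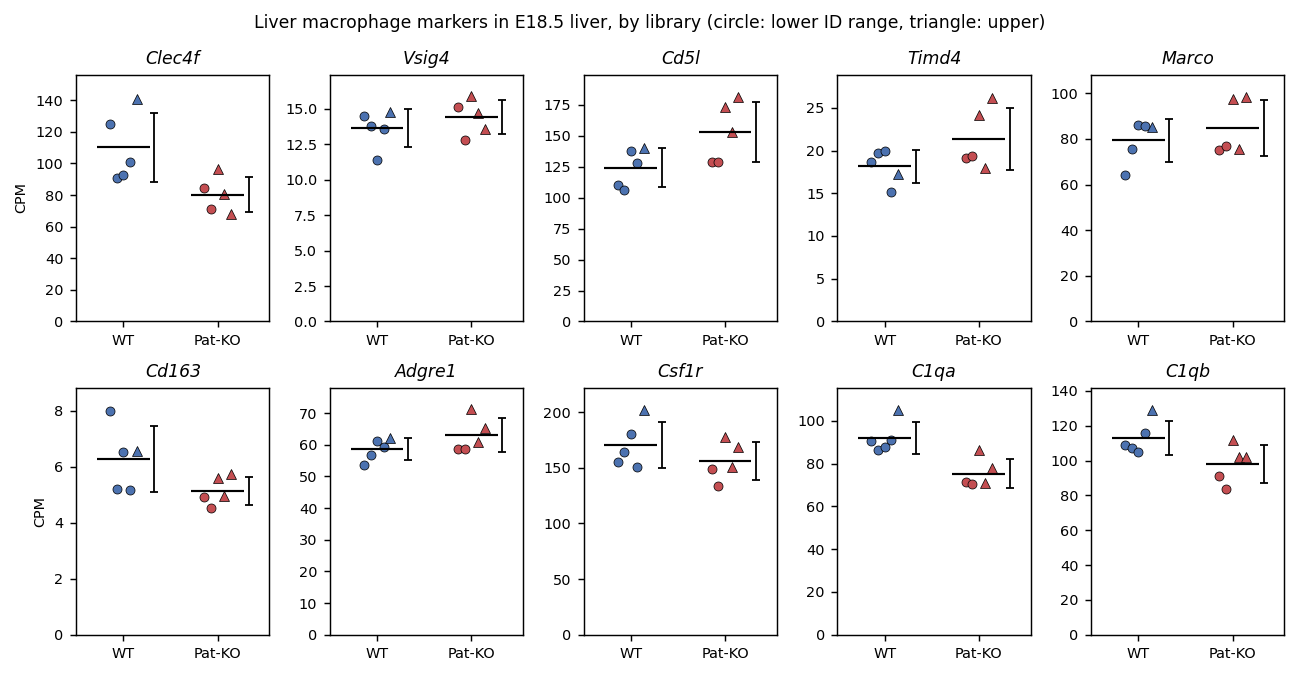
CPM of each marker in each library (circles, lower identification number range; triangles, upper range), with the group mean as a line and the SD as a bar, n = 5 per group. C1qa alone has no overlap between the groups, with 86.5 to 105 CPM in the WT group and 70.4 to 86.2 CPM in the Mir483Pat-KO group.

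Clec4f encodes a C-type lectin receptor that in mice is found on Kupffer cells and hardly elsewhere, and it is acquired as these cells mature in the liver. WT replicates 1 to 5 gave 125, 90.7, 92.8, 101 and 141 CPM, and Mir483Pat-KO replicates 1 to 5 gave 84.6, 71.4, 96.6, 80.4 and 68.2 CPM. Mir483Pat-KO libraries 1, 2, 4 and 5 lay below every WT library, whereas replicate 3 lay within the WT range. The mean was 110 ± 22.1 CPM in the WT group and 80.2 ± 11.3 CPM in the Mir483Pat-KO group (SD, n = 5), with a log2 fold change of −0.46 (SE 0.122, 95% interval −0.70 to −0.22, adjusted p = 0.0416). The difference was present in the lower identification range, with means of 102 and 78 CPM in WT and Mir483Pat-KO, and in the upper one, with 141 CPM in its single WT library and a mean of 81.7 CPM in Mir483Pat-KO. The call did not hold without any one of WT replicates 1, 4 or 5 or Mir483Pat-KO replicates 2, 4 or 5. The adjusted p over the 10 fits with 1 library left out ran from 0.0211 to 0.0948, and the log2 fold change from −0.54 to −0.35. The robust fit gave an adjusted p of 0.0575 and so did not call it.

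C1qa encodes the A chain of C1q, the recognition part of the classical complement pathway, which in most tissues is made by macrophages. WT replicates gave 90.6, 86.5, 87.6, 90.9 and 105 CPM, and Mir483Pat-KO replicates gave 71.2, 70.4, 86.2, 71 and 77.7 CPM. The groups did not overlap, which 6.6% of all genes tested also showed, although Mir483Pat-KO replicate 3 came within a narrow margin of WT replicate 2. The log2 fold change was −0.29 (SE 0.076, 95% interval −0.44 to −0.14, adjusted p = 0.0389). Means in the lower range were 88.9 CPM in the WT group and 70.8 CPM in the Mir483Pat-KO group. In the upper range they were 105 CPM (1 WT library) and 78.3 CPM. The call was lost without any one of WT replicates 4 or 5 or Mir483Pat-KO replicates 1, 2, 4 or 5, with adjusted p between 0.0184 and 0.098 over the 10 such fits. It was also lost with offsets for GC content and length, where it stood at −0.19 (log2) with adjusted p = 0.0974. C1qa has the highest exonic GC content of the 10 markers, 59.5%.

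C1qb encodes the B chain and C1qc, which is not among the 10 markers, the C chain, and the 3 chains assemble into one protein. Their genes lie side by side on the minus strand within 18.7 kb (chr4:136880129-136898803, GRCm38). C1qb was at 109, 107, 105, 116 and 129 CPM in the WT group and at 91.4, 83.5, 112, 102 and 102 CPM in the Mir483Pat-KO group, and Mir483Pat-KO replicate 3 lay within the WT range. Its log2 fold change was −0.20 (SE 0.0839, adjusted p = 0.17). C1qc was at 105, 108, 112, 114 and 132 CPM in the WT group and at 84.9, 75.2, 108, 89.6 and 105 CPM in the Mir483Pat-KO group, with a log2 fold change of −0.31 (SE 0.0952, adjusted p = 0.0711). All 3 chains thus had lower fitted levels in Mir483Pat-KO, and C1qa alone passed. With the identification range as a covariate, C1qb (log2 fold change −0.31, adjusted p = 0.0144) and C1qc (−0.43, adjusted p = 0.00538) passed as well, in a fit that called 8.43% of all genes. C1qc also passed with DESeq2 (adjusted p = 0.034), without a low-count filter (0.0161) and without Mir483Pat-KO replicate 3 (0.0455). With the GC and length offsets the log2 fold changes were smaller, −0.13 for C1qb and −0.21 for C1qc, and neither passed.

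Cd5l, a secreted scavenger protein of tissue macrophages and a target of the nuclear receptor LXR, had the largest positive fold change. WT replicates gave 110, 106, 138, 128 and 140 CPM, and Mir483Pat-KO replicates gave 129, 129, 173, 153 and 181 CPM. Mir483Pat-KO replicates 3, 4 and 5, which belong to the upper range, lay above every WT library, and replicates 1 and 2 lay among them. The log2 fold change was 0.30 (SE 0.108, 95% interval 0.09 to 0.51, adjusted p = 0.112). Lower-range means were 120 CPM in the WT group and 129 CPM in the Mir483Pat-KO group, and upper-range values were 140 CPM and 169 CPM. With the range as a covariate the log2 fold change was 0.16, and in the lower range alone it was 0.10. Without a low-count filter Cd5l passed, at 0.30 and an adjusted p of 0.0211.

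The markers Timd4, Marco and Cd163, receptors for engulfment and scavenging, did not pass in either direction. Timd4, which binds phosphatidylserine on dying cells, was at 18.6, 19.7, 20, 15.2 and 17.2 CPM in the WT group and 19.1, 19.4, 24.2, 17.9 and 26.2 CPM in the Mir483Pat-KO group. The higher values of Mir483Pat-KO were those of replicates 3 and 5, and the log2 fold change was 0.24 (SE 0.115, adjusted p = 0.234). This fold change was 0.06 in the lower range alone, and ran from 0.15 to 0.29 with 1 library left out. Marco, a scavenger receptor for bacteria and particles, was at 64.4 to 86.3 CPM in the WT group and 75 to 98.5 CPM in the Mir483Pat-KO group (log2 fold change 0.09, SE 0.101, adjusted p = 0.627). In the lower range alone its fold change turned to −0.04. Cd163, the receptor that takes up haptoglobin bound to hemoglobin, was the marker with the fewest counts. It was at 5.16 to 7.99 CPM in the WT group and 4.52 to 5.73 CPM in the Mir483Pat-KO group (log2 fold change −0.28, SE 0.145, adjusted p = 0.265).

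Vsig4, the complement receptor that captures C3-coated particles, had nearly level means. It was at 13.6 ± 1.31 CPM in the WT group and 14.4 ± 1.22 CPM in the Mir483Pat-KO group (SD, n = 5), with a 95% interval of the log2 fold change from −0.11 to 0.27 (adjusted p = 0.669). Its fold change of 0.08 turned to −0.02 with the GC and length offsets. Adgre1, which encodes the F4/80 antigen, was at 53.5 to 62.2 CPM in the WT group and 58.5 to 71.3 CPM in the Mir483Pat-KO group, with an interval from −0.04 to 0.25 (adjusted p = 0.43). Csf1r, the receptor on which survival of these cells rests, was at 155, 164, 180, 151 and 202 CPM in the WT group and 149, 134, 178, 151 and 169 CPM in the Mir483Pat-KO group, with an interval from −0.31 to 0.05 (adjusted p = 0.448). The groups overlapped for all 3 genes. Of the exonic bases of Csf1r, 15.1% overlap Hmgxb3 on the other strand, and whether the counting used strand is not stated.

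**Figure D2:**
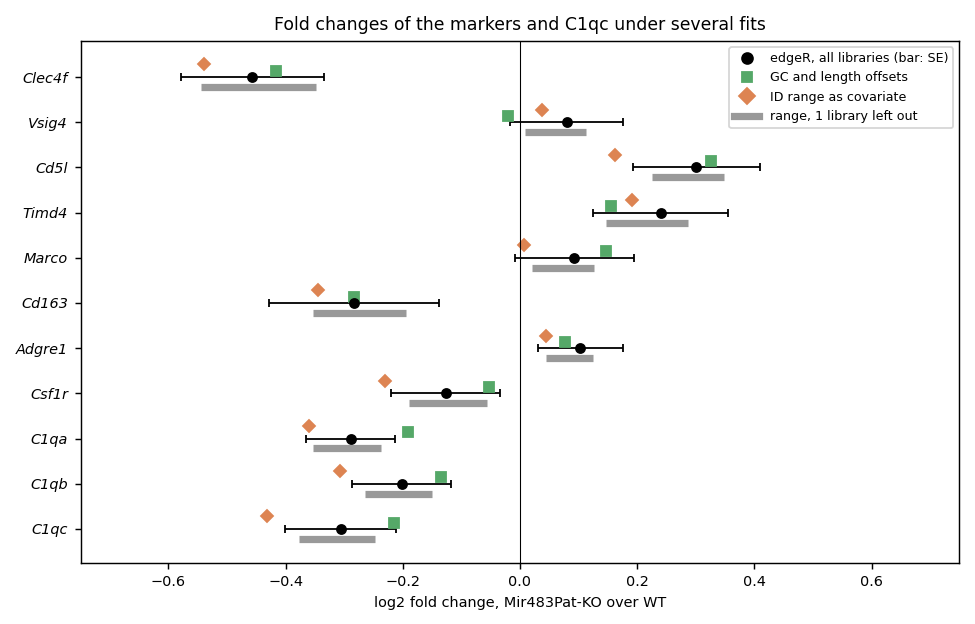
Log2 fold change (Mir483Pat-KO over WT) of the 10 markers and C1qc. Black points with SE are the edgeR fit on all libraries, green squares the fit with GC and length offsets, orange diamonds the fit with the identification range as a covariate, and grey bars the range over fits with 1 library left out. Clec4f, Cd163, Csf1r and the C1q chains stay below 0 and Cd5l, Timd4, Marco and Adgre1 above 0 in the fits drawn, and Vsig4 crosses 0 with the offsets.

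Ratios between markers within a library do not depend on its depth or scaling. The pairs were chosen after the values were seen, and are given as descriptions with no test. Clec4f over Cd5l was 1.14, 0.857, 0.674, 0.789 and 1.01 in WT and 0.657, 0.552, 0.557, 0.526 and 0.376 in Mir483Pat-KO, with no overlap. C1qa over Adgre1 averaged 1.57 ± 0.112 in WT livers and 1.2 ± 0.0198 in Mir483Pat-KO livers (SD, n = 5), again with no overlap. Within the upper range this ratio was 1.68 in the WT library and 1.21, 1.16 and 1.19 in the Mir483Pat-KO libraries. Clec4f over Vsig4 averaged 8.05 ± 1.14 in WT livers and 5.55 ± 0.388 in Mir483Pat-KO livers, with no overlap. C1qa over C1qb, the ratio of chains of one protein, was 0.815 ± 0.0223 and 0.769 ± 0.0533, and the groups overlapped.

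**Figure D3:**
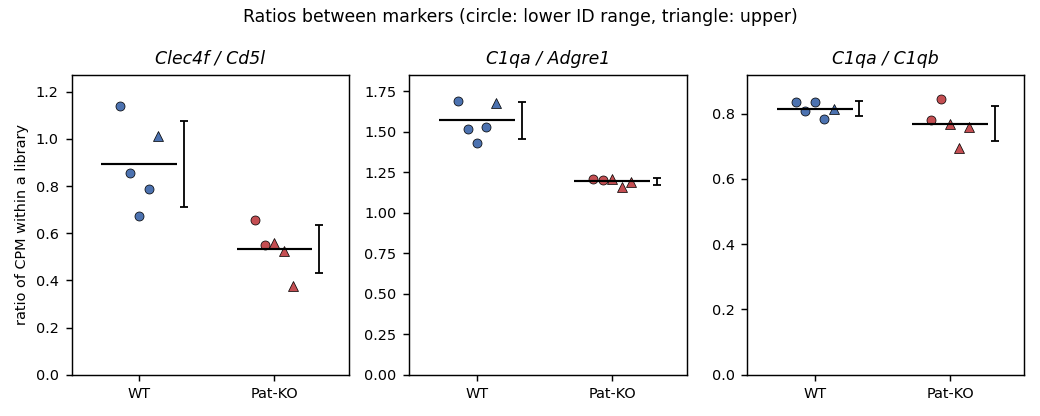
Ratio of the CPM of one marker to that of another within each library (circles, lower identification range; triangles, upper range), with group mean and SD, n = 5. Clec4f over Cd5l and C1qa over Adgre1 are lower in all Mir483Pat-KO libraries than in any WT library, whereas C1qa over C1qb overlaps.

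Levels were compared between genes as CPM per kb of exon, over all 10 libraries. C1qb was the highest, at 97.2 ± 11.5 CPM per kb, followed by C1qa at 80.5 ± 10.6 and Cd5l at 68.1 ± 12.1 (SD, n = 10). C1qb was above C1qa in 10 of 10 libraries. C1qa was above Cd5l in 7 of 10. In the WT group C1qa was the higher in 5 of 5 libraries, at 88.5 ± 6.98 against 61 ± 7.75 CPM per kb. In the Mir483Pat-KO group it was the higher in 2 of 5, at 72.4 ± 6.53 against 75.2 ± 12, which did not differ beyond their spread. Those were Mir483Pat-KO replicates 1 and 2, the libraries of that group in the lower identification range. Marco (42.6 ± 5.55 CPM per kb) and Clec4f (38.5 ± 9.23) came next, with Marco the higher in 8 of 10 libraries. Here Clec4f had the higher WT mean, 44.5 ± 8.93 against 41.2 ± 4.94 CPM per kb, with Marco ahead in 3 of 5 libraries. In the Mir483Pat-KO group Marco was ahead in 5 of 5, at 44 ± 6.35 against 32.5 ± 4.57. Csf1r (28.3 ± 3.41) followed, which Clec4f exceeded in 9 of 10 libraries. Adgre1 stood at 18.8 ± 1.51 CPM per kb, apart from its neighbours in the order. Vsig4 (9.45 ± 0.849 CPM per kb) and Timd4 (9.09 ± 1.49) did not differ beyond their spread, with Vsig4 higher in 4 of 5 WT and 2 of 5 Mir483Pat-KO libraries. Cd163 was lowest, at 1.05 ± 0.19 CPM per kb.

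The markers were also compared from fetus to fetus within a genotype. Deviations of log2 CPM from the group mean had a positive correlation for 39 of 45 pairs, with a median Pearson r of 0.50 (n = 10 libraries), and of 0.35 within identification ranges. WT replicate 5 is the only WT library in the upper range, so all values within ranges rest on the other libraries. No pair passed after adjustment over the 45 pairs, by Pearson's r or by Spearman's rho, and 14 and 11 pairs had an unadjusted p under 0.05 (two-sided exact permutation within groups, 14400 arrangements). With 1 library left out, 9 pairs passed by Pearson's r when WT replicate 3 was dropped. Dropping Mir483Pat-KO replicate 5 gave 3 passing pairs, and dropping Mir483Pat-KO replicate 1 or 4 gave 1 each. In Mir483Pat-KO replicate 3 all 10 markers lay above the group mean, and in WT replicate 5 there were 9. In Mir483Pat-KO replicate 2 the number was 0. The markers share each library's depth and scaling.

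The pair with the smallest p was C1qa and C1qb, with r = 0.85 (exact permutation p = 0.00111, adjusted p = 0.05) and rho = 0.806 (p = 0.0172, adjusted p = 0.112). Without the 2 libraries farthest from the median of C1qa, r was 0.966, and within ranges it was 0.671. Marco and Adgre1 gave r = 0.915 (exact permutation p = 0.00396, adjusted p = 0.0594) and rho = 0.842 (p = 0.0102, adjusted p = 0.112), with r = 0.951 without the 2 farthest libraries and 0.891 within ranges. As a description of genes grouped after their values were seen, among C1qa, C1qb, Csf1r, Adgre1, Cd5l and Marco the lowest of the 15 values of r was 0.57, though the lowest within ranges was 0.11.

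Clec4f and Vsig4 gave r = 0.775 (exact permutation p = 0.0126, adjusted p = 0.0711), rho = 0.855 (p = 0.00465, adjusted p = 0.112), r = 0.705 without the 2 farthest libraries and 0.752 within ranges. With Marco, however, Clec4f gave r = −0.0791 (exact permutation p = 0.818, adjusted p = 0.857) and rho = −0.236 (p = 0.515, adjusted p = 0.662), with r = 0.13 without the 2 farthest libraries and −0.405 within ranges.

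**Figure D4:**
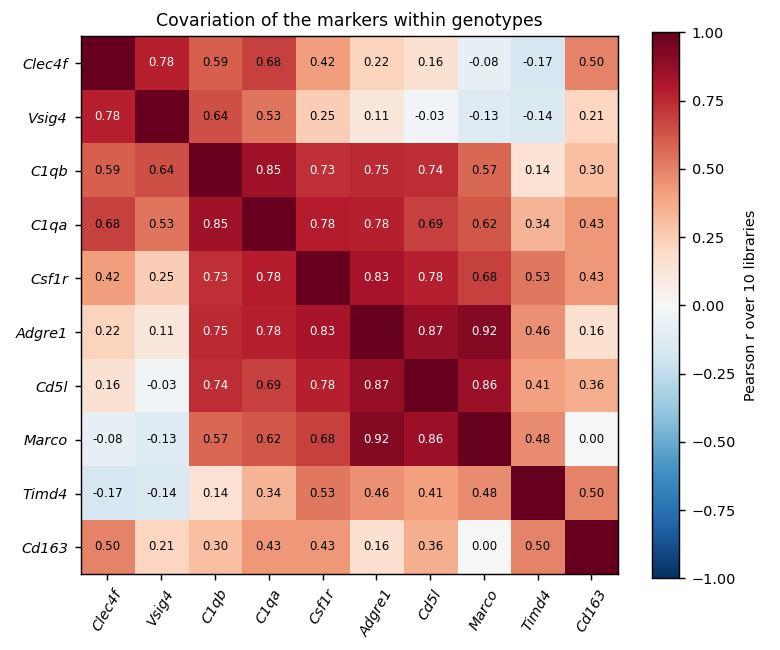
Pearson r between markers, over 10 libraries, of deviations of log2 CPM from the group mean, on a colour scale from −1 (blue) to 1 (red). Marco, Adgre1, Cd5l, Csf1r, C1qa and C1qb, placed side by side after their values were seen, have values from 0.57 to 0.92, and Clec4f and Vsig4 are close to 0 against Marco, Timd4 and Cd5l.

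The genes whose deviations were most like the mean deviation of the 10 markers were, of 12537 genes compared, Slc50a1 (r = 0.984), Csf2rb (0.979), Stat5b (0.956), Zfp516 (0.951), C1qc (0.937), Flcn (0.932), Ctss (0.926) and 4930556M19Rik (0.924), each over 10 libraries. They were picked as the highest of many, and the values are descriptions. Ctss encodes a macrophage cathepsin and Csf2rb the shared receptor chain for GM-CSF and interleukin-3. None of the 8 passed between genotypes, with log2 fold changes from −0.31 (C1qc) to 0.13 (Slc50a1).

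Genes that work with the markers were read from 7 lists of 101 genes, of which 99 were tested. Of these, 6 were lower and 2 higher at an adjusted p under 0.05, 8.08% of those tested against 5.19% of all genes, and their median log2 fold change was −0.030. In the other Kupffer cell genes, 1 of 15 fell and 1 rose. Siglec1, the sialic acid receptor CD169 of resident macrophages, was at 42.7, 52.8, 58, 52.7 and 62.1 CPM in the WT group and 39.6, 28, 45.2, 27.8 and 39.5 CPM in the Mir483Pat-KO group. Mir483Pat-KO replicate 3 was the one library that overlapped the WT range, and the log2 fold change was −0.57 (SE 0.129, adjusted p = 0.0198). That call was lost without WT replicate 5 (adjusted p = 0.05) or Mir483Pat-KO replicate 4 (0.0572). Il18bp, the secreted inhibitor of interleukin-18, was at 27.2 to 30 CPM in the WT group and 31.7 to 39.2 CPM in the Mir483Pat-KO group (log2 fold change 0.31, SE 0.0793, adjusted p = 0.0316). The Il18bp call held in 2 of 10 fits with 1 library left out, those without Mir483Pat-KO replicates 1 or 2, with an adjusted p up to 0.0842.

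Among 24 general macrophage genes, edgeR called 0, DESeq2 and limma-voom also 0, and 5 had an unadjusted p under 0.05, a share close to the 22.2% of all genes. By direction, 14 had positive and 10 negative fold changes. The 5 went both ways: Cd53, a pan-leukocyte tetraspanin, had 0.43 (SE 0.145, adjusted p = 0.09), and Lyz2, the lysozyme of myeloid cells, 0.29 (SE 0.105, adjusted p = 0.112). Cd53 passed with the range as a covariate (0.56, adjusted p = 0.033), without a low-count filter (0.00321), and when WT replicate 2 (0.0458) or Mir483Pat-KO replicate 5 (0.046) was left out, and had 0.24 (0.174) with the GC and length offsets. The other 3, named after their values were seen, had negative values, with the Fc receptor gene Fcgr1 at −0.34 (adjusted p = 0.116) and the complement receptor genes C3ar1 at −0.37 (0.124, with no overlap between groups) and C5ar1 at −0.25 (0.192).

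Of 16 macrophage transcription factors, 1 passed, beside 5.19% of all genes, and 6 had an unadjusted p under 0.05, beside 22.2%. Mitf, a relative of the lysosomal regulator Tfeb, rose from 1.86 ± 0.198 CPM in WT to 3.11 ± 0.538 CPM in Mir483Pat-KO (SD, n = 5), a log2 fold change of 0.74 (SE 0.186, adjusted p = 0.0318) with no overlap between groups. Over the fits with 1 library left out its adjusted p reached 0.0884, and the call held in 3 of 10, without WT replicates 1 or 2 or Mir483Pat-KO replicate 5. Nr1h3, which encodes LXRα and maintains Kupffer cell identity, was at 27.5 to 32.9 CPM in the WT group and 23.7 to 29.6 CPM in the Mir483Pat-KO group (log2 fold change −0.26, SE 0.0819, adjusted p = 0.078). It passed with DESeq2 (adjusted p = 0.0465), without Mir483Pat-KO replicate 3 (0.0339) and with the range as a covariate (0.0291). DESeq2 called 2 of the 16 factors and limma-voom 1. Id3, another factor of Kupffer cell development, had −0.25 on the same scale (adjusted p = 0.149). Spi1, which encodes PU.1, had −0.16 (adjusted p = 0.435), Irf8 −0.10 (0.54) and Spic, the factor of iron-recycling macrophages, 0.19 (0.473).

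All 8 tested ligands and partners of the markers had negative fold changes, and 2 passed, beside 2.76% of all genes that were lower. Of the 8, C1s1 (−0.01, SE 0.0617) and C1ra (−0.05, SE 0.0734), named after their values were seen, were nearly level. DESeq2 called 4 of the 8 and limma-voom 2, and 5 had an unadjusted p under 0.05, beside 22.2% of all genes. C3, the complement component whose fragments Vsig4 binds and which hepatocytes secrete, fell from 9530 ± 521 to 7782 ± 828 CPM (SD, n = 5), with 9157 to 10439 CPM in the WT group and 6958 to 9031 CPM in the Mir483Pat-KO group (log2 fold change −0.29, SE 0.0811, adjusted p = 0.0473). The C3 call held in 1 of 10 fits with a library left out, that without Mir483Pat-KO replicate 1, with an adjusted p up to 0.121. Hp, the hepatocyte haptoglobin that brings hemoglobin to Cd163, fell from 1407 ± 273 to 1014 ± 117 CPM (log2 fold change −0.47, SE 0.123, adjusted p = 0.0377), although WT replicate 2, at 944 CPM, lay among the Mir483Pat-KO libraries. That call held in 3 of 10 such fits, without WT replicate 2 or Mir483Pat-KO replicates 1 or 5. Csf1, the ligand of Csf1r, was at 17.8, 21.8, 22.2, 22.7 and 22.5 CPM in the WT group and 20.9, 17.8, 15.4, 18.6 and 15.7 CPM in the Mir483Pat-KO group (log2 fold change −0.28, SE 0.1, adjusted p = 0.112), and passed without Mir483Pat-KO replicate 1 (adjusted p = 0.0477). Tnfsf12, the TWEAK ligand that Cd163 can bind, had −0.38 (SE 0.196, adjusted p = 0.266). Il34, the other ligand of Csf1r, was at 0 to 0.71 CPM and was not tested.

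Of the 10 scavenger receptors, 9 had negative fold changes and 1 a positive one, and 3 passed, all lower in Mir483Pat-KO, as 2.76% of all genes did. At an unadjusted p under 0.05 there were 5, beside 22.2% of all genes. Scarf1, expressed on endothelium and phagocytes, fell from 13.6 ± 0.888 to 10.4 ± 0.57 CPM with no overlap (log2 fold change −0.39, SE 0.0894, adjusted p = 0.0211), a call lost without WT replicate 5 (adjusted p = 0.0519) and with the GC and length offsets (0.104). Scarb1, the HDL receptor, and Lrp1, an endocytic receptor, are also abundant in hepatocytes, and fell with log2 fold changes of −0.29 (SE 0.0712, adjusted p = 0.0308) and −0.43 (SE 0.108, adjusted p = 0.031). Each of these calls held in 4 of 10 fits with a library left out and was lost without WT replicates 3, 4 or 5 or Mir483Pat-KO replicates 2, 3 or 4, with adjusted p up to 0.0824 and 0.0799. Among 15 genes of engulfment and heme iron recycling, edgeR, DESeq2 and limma-voom called 0, and 2 had an unadjusted p under 0.05, a smaller share than the 22.2% of all genes (Slc48a1, a heme transporter, at 0.25, adjusted p = 0.106, and Cd47, the signal that spares cells from engulfment, at 0.26, adjusted p = 0.107). Slc48a1 passed with the GC and length offsets (0.33, adjusted p = 0.0178), and was at 0.08 in the lower identification range alone. Among 11 niche signals the tools also called 0, and 2 had an unadjusted p under 0.05, again a smaller share than over all genes, Tgfb1 at −0.24 (adjusted p = 0.0818) and Bmp10 at 0.40 (adjusted p = 0.175). Without Mir483Pat-KO replicate 3 the Bmp10 value was 0.16.

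**Figure D5:**
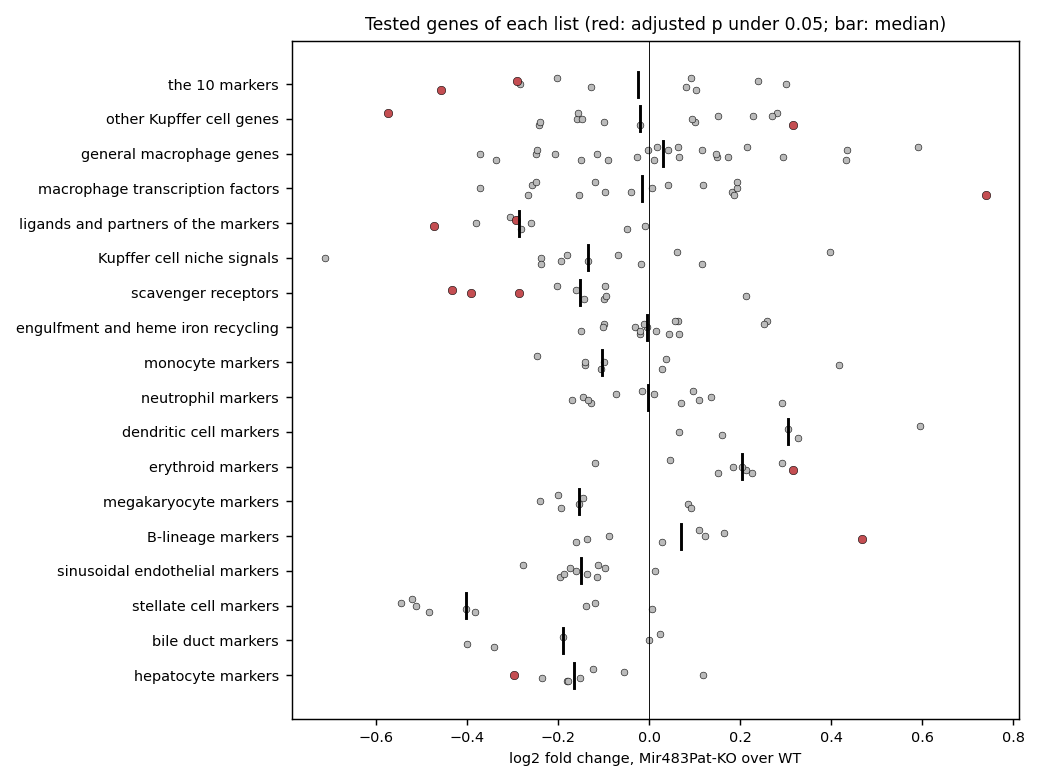
Log2 fold change (Mir483Pat-KO over WT) of each tested gene, by list, with red for an adjusted p under 0.05 and a bar at the list's median. The 10 markers spread on both sides of 0, with Clec4f and C1qa in red at the left. All 8 tested ligands and partners lie below 0, with C1s1 and C1ra close to it.

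Markers of the other cells in the samples moved as follows, and their part in the marker results was not tested. Over all genes, 5.19% were called by edgeR and 22.2% had an unadjusted p under 0.05, and the counts of each list stand beside these shares. Monocyte and neutrophil lists, the nearest myeloid relatives, had 0 of 8 and 0 of 12 genes called by edgeR, DESeq2 or limma-voom, with 1 gene each at an unadjusted p under 0.05, and summed levels that overlapped (256 to 356 CPM in the WT group and 256 to 311 CPM in the Mir483Pat-KO group for monocytes, 2813 to 4186 and 3548 to 4084 CPM for neutrophils). The smallest p were those of Ccr2 (log2 fold change 0.42, adjusted p = 0.171) and Plac8 (−0.14, 0.322) for monocytes, and S100a8 (0.29, 0.162) and Elane (−0.17, 0.305) for neutrophils. Dendritic cell genes summed to 22.1 to 24.7 CPM in the WT group and 24.6 to 29 CPM in the Mir483Pat-KO group, with 0 of 5 called by the 3 tools, 1 at an unadjusted p under 0.05, and Itgax at 0.59 (adjusted p = 0.198) and Flt3 at 0.33 (0.308).

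The erythroid list had a median log2 fold change of 0.204 and summed to 4759 to 5769 CPM in the WT group and 5526 to 6584 CPM in the Mir483Pat-KO group. Of its 9 genes 8 had positive fold changes and 6 an unadjusted p under 0.05 (22.2% of all genes). With edgeR and limma-voom 1 passed each, with DESeq2 2, and the gene called by edgeR was Rhag, of the Rh complex (0.32, adjusted p = 0.0486). The Rhag call was lost with the GC and length offsets (0.186, adjusted p = 0.158) and in the lower identification range alone (0.150, 0.441). Of 8 B-lineage genes 1 rose, the recombinase gene Rag1 (0.47, adjusted p = 0.0169), with sums of 104 to 133 CPM and 120 to 145 CPM. Megakaryocyte genes had 0 of 7 called by the 3 tools and 0 at an unadjusted p under 0.05, with Itga2b at −0.24 (adjusted p = 0.322) and Pf4 at −0.19 (0.47), and sums of 165 to 353 CPM in the WT group and 190 to 262 CPM in the Mir483Pat-KO group.

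The lists of the cells that surround Kupffer cells had negative medians. Sinusoidal endothelial genes had a median of −0.149 and summed to 452 to 498 CPM in the WT group and 391 to 454 CPM in the Mir483Pat-KO group, with 0 of 10 called by the 3 tools, 3 at an unadjusted p under 0.05, and Flt4 at −0.28 (adjusted p = 0.0823) and Pecam1 at −0.20 (0.0884). Stellate cell genes had a median of −0.403 and summed to 540 to 951 and 486 to 713 CPM. Of these 9 genes edgeR called 0, DESeq2 2 and limma-voom 1, and 4 had an unadjusted p under 0.05, with Pdgfrb at −0.48 (adjusted p = 0.0511) and Reln at −0.40 (0.0664). Hepatocyte genes had a median of −0.165 and summed to 209175 to 231236 CPM in the WT group and 190164 to 222385 CPM in the Mir483Pat-KO group, and 7 of 8 had negative fold changes, 4 of them at an unadjusted p under 0.05 (22.2% of all genes). Of the 8 genes edgeR called 1, Apoa1, the main HDL apolipoprotein (−0.30, adjusted p = 0.0262), DESeq2 3 and limma-voom 2. With 1 library left out, the call of Rag1 held in 9 of 10 fits (not without Mir483Pat-KO replicate 4, adjusted p = 0.0524), that of Apoa1 in 6 and that of Rhag in 3, with adjusted p up to 0.0557 for Apoa1 and 0.115 for Rhag. Bile duct genes had 0 of 5 called by the 3 tools and 0 at an unadjusted p under 0.05, with Krt19 at −0.40 (adjusted p = 0.272) and Krt7 at −0.34 (0.279), and sums of 41.8 to 96.8 and 57.6 to 86.6 CPM.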

How the data were processed

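Liver RNA of 5 Mir483Pat-KO and 5 WT female fetuses was analysed. The authors isolated total RNA (RNA integrity was checked by them), made stranded polyA libraries, sequenced paired ends, and used STAR to align to GRCm38 and to count reads per Ensembl gene. They deposited raw counts without normalization. The strand setting and the handling of reads that map to several places are not given in the sources used here.

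Counts were fitted in R 4.3.3 with edgeR 4.0.16 (filterByExpr, TMM, quasi-likelihood F-test, no covariates) and adjusted by Benjamini-Hochberg over 14098 genes. The common biological coefficient of variation was 0.111. Totals of 10831350 to 14765880 counts limit the precision mainly for Cd163. Symbols matched 55141 of 55401 genes, with positions from GENCODE M21. Log2 CPM for correlations used a prior count of 2. The alternatives were RLE scaling, DESeq2 1.42.0, limma-voom (limma 3.58.1), a robust fit, other low-count filters, the replicate block, the identification range, single libraries left out, and GC content and length offsets. Python 3.11.15, numpy 2.4.6, pandas 2.3.3 and matplotlib 3.10.9 were used for the remaining steps, and the fits were tested on simulated data.

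The text names all 10 markers, fixed partners and transcription factors, the called members of every other list (at most 4, or the 2 smallest p where none was called), and the 8 genes most like the markers (average log2 CPM of at least 1). Items withheld for evaluation are left out of the lists and not reported here. The markers and lists were chosen with earlier results of these data known. Within groups, the 20 pairs of libraries all differed by more than counting noise (chi-square over its degrees of freedom at least 4.85), so none was counted as a duplicate.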

Additional observations from a re-analysis of the deposited data

Results flagged for a closer look

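In 4 of the 101 groups of 5 libraries examined, 1 library stood far from the other 4 by Dixon's criterion, which chance meets in about 1 group in 20. Among the markers, C1qa was at 105 CPM in WT replicate 5, with the next WT library at 90.9 CPM. Without that library the log2 fold change of C1qa was −0.24 and the adjusted p 0.0885. C3 was at 10439 CPM in the same library, with the next at 9417 CPM. Csf1 was at 17.8 CPM in WT replicate 1, with the next lowest at 21.8 CPM. Bmp10 was at 34.5 CPM in Mir483Pat-KO replicate 3, with the next at 19.6 CPM, and without it the log2 fold change was 0.16 in place of 0.40.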

How the results depend on the processing

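The number of the 10 markers that passed, 2 in the fit reported, was 3 without a low-count filter and with the range as a covariate, 1 with the robust fit, 0 in the lower identification range alone and 1 with GC content and length offsets. With 1 library left out it ran from 0 to 2. The number of other macrophage genes that passed, 8 in the fit reported, was 13 without a low-count filter, 12 with DESeq2 and with the range as a covariate, 0 in the lower range alone and 0 to 8 with 1 library left out. The median of the markers ran from −0.123 (lower range alone) to 0.028 (without WT replicate 5). The number of correlated pairs, 0 over all libraries, ran from 0 to 9 with 1 library left out, the 9 without WT replicate 3. Signs reversed for Vsig4 with the offsets (−0.020), and for Marco (−0.043) and Spic (−0.146) in the lower range alone. Of the 8 other macrophage genes, the range as a covariate ended the calls of Il18bp (log2 fold change 0.25 against 0.31, adjusted p = 0.0601) and C3 (−0.29 in both fits, 0.0512), the offsets those of Hp (−0.40, 0.0562), C3 (−0.23, 0.0969) and Scarf1 (−0.28, 0.104), and the robust fit that of Hp (−0.47 in both fits, 0.0501). Calls that the fit reported did not make included those of Lyz2 (adjusted p = 0.0262), Bmp10 (0.0248), Cd47 (0.0489) and S100a8 (0.0335) without a low-count filter, and of Slc48a1 (0.0178) with the offsets. The cause was not tested, except that the lower range holds 6 libraries, and there 23 genes passed over the whole table.

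The labels do not state whether replicate numbers pair the libraries. Deviations of same-numbered libraries correlated above 0.1 in 2 of 5 pairs, with a mean of 0.0871, against −0.0217 for other pairs. Of the 10 libraries, 5 correlated best with their own number. With the replicate block, 3 markers passed (Cd5l at an adjusted p of 0.00918 in addition), as did C1qc (0.0149), Nr1h3 (0.0482), Cd53 (0.00446), Slc48a1 (0.0306) and Cd47 (0.038), and 14 other macrophage genes passed in all, of 1338 genes over the whole table against 731 without it. Cd163, with 55 to 93 counts per library, is the marker whose depth allows the least.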
